A study of Homo sapiens with 12 samples.

Results

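Transcripts of 10 B-cell and germinal centre regulators were followed in SUDHL6 cells, an established human cell line of the germinal centre class of diffuse large B-cell lymphoma. They are BACH2, PAX5, IRF8, POU2AF1, POU2F2, SPI1, SPIB, LMO2, MEF2B and MEF2C, taken by exact symbol from the count tables because they help set B-cell and germinal centre identity. BCL6 and MYBL1 do not belong to the set. All 10 were found among 23368 gene symbols, and all 10 passed the filter on low counts at both times. The 4 groups were cells given 200 nM GSK591 for 24 h, cells given 0.01% DMSO vehicle for 24 h, cells given 200 nM GSK591 for 96 h and cells given 0.01% DMSO vehicle for 96 h. GSK591 is a small-molecule inhibitor of PRMT5, an enzyme that places symmetric dimethyl marks on arginines of histones, Sm proteins and other substrates. Each group held 3 libraries of poly(A)-selected RNA. All 12 libraries came from 1 cell line, and no label says that the 3 libraries of a group were separate cultures, so p-values measure the spread between these libraries, which may be technical.

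In a germinal centre, B cells divide, mutate their antibody genes and compete for antigen, and they leave as memory B cells or as plasma cells. PAX5 commits cells to the B lineage and keeps plasma cell genes off. The Ets factors PU.1 and Spi-B bind beside IRF8 or IRF4 at composite sites, Oct-2 and its coactivator OCA-B act at octamer sites of B-cell promoters, and BACH2 pairs with small Maf proteins to repress PRDM1, the gene of the plasma cell regulator BLIMP-1. MEF2B activates BCL6 in germinal centre B cells, MEF2C acts below the B-cell receptor, and LMO2 is a bridging protein of transcription complexes that marks germinal centre lymphomas.

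These 3 promoters show the spread of outcomes among these genes. They are those of BACH2, whose transcript rose most, and of SPIB, the member that fell. The third is that of MEF2B, which read low in CPM and whose promoter holds the octamer bound by Oct-2. Each line gives the 250 bases before the start of the gene on the gene's strand, 5′ to 3′, from RefSeq on GRCh38.p14. BACH2 lies on the minus strand at chr6:90296844-90297093, SPIB on the plus strand at chr19:50418688-50418937 and MEF2B on the minus strand at chr19:19170264-19170513. Capitals mark matches to any of 6 short motifs on either strand, and overlapping matches run together.
BACH2: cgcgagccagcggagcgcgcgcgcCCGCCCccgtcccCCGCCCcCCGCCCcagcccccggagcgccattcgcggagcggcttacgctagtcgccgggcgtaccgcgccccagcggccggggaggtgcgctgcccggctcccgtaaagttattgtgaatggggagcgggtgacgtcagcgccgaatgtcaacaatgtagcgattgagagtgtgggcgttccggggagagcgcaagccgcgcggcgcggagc
SPIB: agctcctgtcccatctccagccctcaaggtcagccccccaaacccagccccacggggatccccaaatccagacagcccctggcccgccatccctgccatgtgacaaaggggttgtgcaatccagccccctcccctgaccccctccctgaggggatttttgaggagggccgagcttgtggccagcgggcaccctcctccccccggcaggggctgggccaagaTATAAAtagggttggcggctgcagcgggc
MEF2B: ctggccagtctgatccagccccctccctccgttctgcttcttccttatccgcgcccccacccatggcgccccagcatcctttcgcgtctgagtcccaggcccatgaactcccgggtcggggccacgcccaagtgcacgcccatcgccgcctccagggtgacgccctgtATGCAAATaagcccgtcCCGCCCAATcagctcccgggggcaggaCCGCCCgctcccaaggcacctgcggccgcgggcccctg
The BACH2 promoter held the GC box GGGCGG, read here as CCGCCC, 226, 213 and 206 bases before the start. The SPIB promoter held TATAAA 29 bases before the start and none of the other motifs. The MEF2B promoter held the octamer ATGCAAAT at 82 bases, GC boxes at 65 and 38 bases, and CCAAT at 61 bases, which overlaps the first of these GC boxes. Of 35116 RefSeq promoter windows of this length, 42.64% held a GC box, 10.72% TATAAA, 32.01% CCAAT and 1.63% the octamer. The PU.1 core GAGGAAGT was in 2.17% and the AP-1 site TGANTCA in 6.57% of windows, and neither was in these 3 promoters. Entries were found for 7 of the 10 genes, all but SPI1, LMO2 and POU2AF1. A window of MEF2C, which has more than 1 start, also held the octamer, as ATTTGCAT 60 bases before that start. MEF2B was picked with its octamer known, so its match is no finding against the 1.63%. These matches are descriptions of the letters and show neither binding nor regulation.

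The libraries held 48.5 to 64.4 M counts (M, mega) in 11 cases, and vehicle replicate 1 at 96 h held 547.9 M. The libraries numbered 2 stood apart at 96 h in both groups, with the lowest value of the group for 7 of the 10 genes under GSK591 and for 7 of the 10 under vehicle. At 24 h these counts were 5 under GSK591 and 3 under vehicle, and the share over all genes was not computed. Between libraries at 96 h, chi-square per degree of freedom over genes was 39.79 and 31.61 for GSK591 pairs with number 2, and 9.12 without. Under vehicle it was 24.6 and 16.65 for pairs with number 2, and 2.97 without. The B-cell markers MS4A1, CD79A, CD79B and CD22 each averaged over 1 CPM in every group. CPM are counts scaled to the size of each library, with sizes corrected by the TMM method over all 12 libraries. All 9 germinal centre markers matched in the tables averaged over 1 CPM in each group. Of 8 myeloid markers none averaged over 1 CPM, and S100A8 and S100A9 had no count in any library. In such bulk RNA, fewer cells of a type and less RNA per cell cannot be told apart.

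After 24 h of GSK591, 4 of the 10 transcripts rose and none fell in edgeR's quasi-likelihood test (adjusted p under 0.05 over 13173 genes). The risers were BACH2, SPI1, POU2AF1 and IRF8. Over all genes tested, 14.7% were called at this time, 7.44% higher and 7.3% lower. Since 8 of the 10 were well expressed, with log2 CPM averaging 5 or more, the share among genes at that level is the closer background, and it was 21.2%, with 14.1% higher and 7.12% lower. The changes were small, with a median log2 fold change of 0.07 over the 10 genes and -0.00 over all genes. The median size of change, sign left aside, was 0.0699 on the log2 scale for the 10 genes and 0.0674 for all genes.

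After 96 h, 6 of the 10 rose, 1 fell and 3 did not pass the test over 13514 genes. BACH2, SPI1, LMO2, PAX5, IRF8 and POU2AF1 rose, SPIB fell, and POU2F2, MEF2B and MEF2C were not called. Over all genes 40.2% were called, 20.7% higher and 19.6% lower. Among the 8 well-expressed members 7 were called, against 45.4% of all genes at that level, of which 24.5% were higher and 20.9% lower. The median log2 fold change was 0.21 over the 10 genes and 0.00 over all genes, while the median size was 0.208 for the 10 genes and 0.216 for all genes. Without both libraries numbered 2 the same count of 7 was called at 96 h, 6 higher and 1 lower, while 60.5% of all genes were then called. These libraries stood apart in these same data. Here and below, lower p-values in fits without them, of 2 against 2 libraries at 96 h, are therefore no separate support. The test of the difference between the effects (96 h minus 24 h, all 12 libraries) called 1 of the 10, BACH2, with 24.1% of 13665 genes called. BACH2 was also the 1 call among the 8 well-expressed members in this test, where 31.4% of genes at that level were called, 12.5% higher and 18.9% lower.

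**Figure D1:**
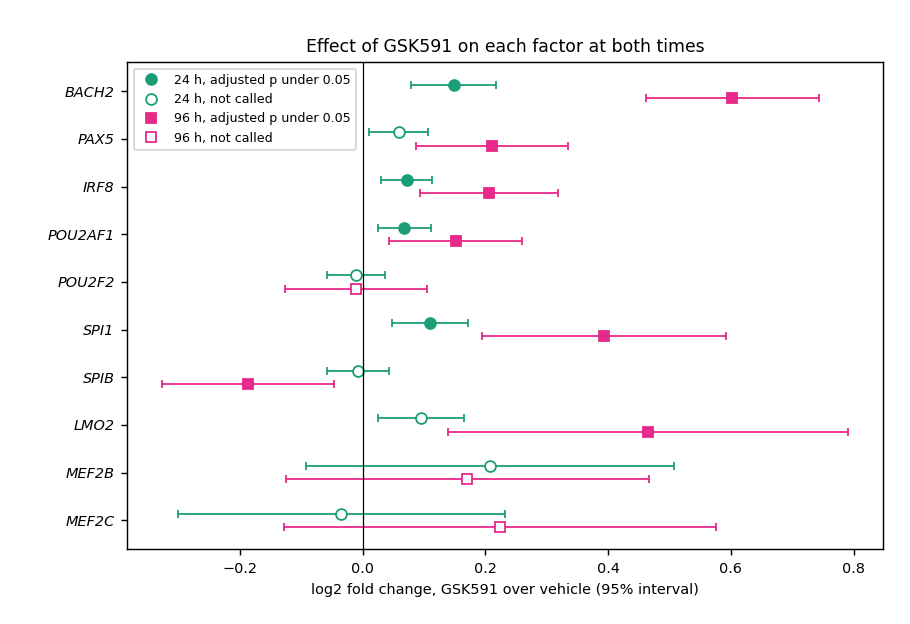
Log2 fold change of each transcript, GSK591 over vehicle, at 24 h (circles) and 96 h (squares), with 95% intervals from edgeR's quasi-likelihood fit of 3 against 3 libraries; filled symbols have an adjusted p under 0.05. BACH2 lies farthest to the right at 96 h, at 0.60, SPIB alone lies left of 0 with a filled symbol, and POU2F2 stays at -0.01 at both times.

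BACH2, a repressor that delays plasma cell differentiation and permits antibody class switching, had the largest change of the set. Its transcript stood at 270.2, 280.5 and 252 CPM after 96 h of GSK591, against 179, 171 and 184 CPM in vehicle. All 3 treated values were above all 3 vehicle values, with means of 268 ± 14.4 CPM under GSK591 and 178 ± 6.80 CPM under vehicle (SD, n = 3 each). The log2 fold change was 0.60 ± 0.06 SE (1.52-fold, 95% interval 0.46 to 0.74, adjusted p = 0.00055 in edgeR), a size larger than that of 86.8% of genes tested. At 24 h BACH2 read 193, 179.7 and 190.2 CPM under GSK591, against 176, 159 and 172 CPM in vehicle. The groups again did not overlap, and the log2 fold change was 0.15 ± 0.03 (edgeR adjusted p = 0.0052). The effect was larger at 96 h than at 24 h by 0.44 ± 0.07 on the log2 scale (edgeR adjusted p = 0.00155). BACH2 was called at 96 h in each of the 15 alternatives tried. Its 24 h call was lost in 1 of 13, the fit of all 12 libraries together (adjusted p = 0.273).

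PAX5, the factor that commits and holds cells to the B lineage, moved less. At 96 h it read 225, 204 and 227 CPM under GSK591, against 191, 188 and 194 CPM in vehicle. The groups did not overlap, and the lowest treated library was the one numbered 2. The log2 fold change was 0.21 ± 0.05 (edgeR adjusted p = 0.0159), and 0.24 (adjusted p = 0.000141) without both libraries numbered 2. Leaving out any 1 of the 5 libraries of 96 h other than GSK591 replicate 2 ended the call (adjusted p between 0.0531 and 0.0691). At 24 h the values were 215, 217 and 209.6 CPM under GSK591 and 204, 208 and 205 CPM in vehicle, a log2 fold change of 0.06 ± 0.02 that did not pass the test (edgeR adjusted p = 0.0905) although the groups did not overlap.

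**Figure D2:**
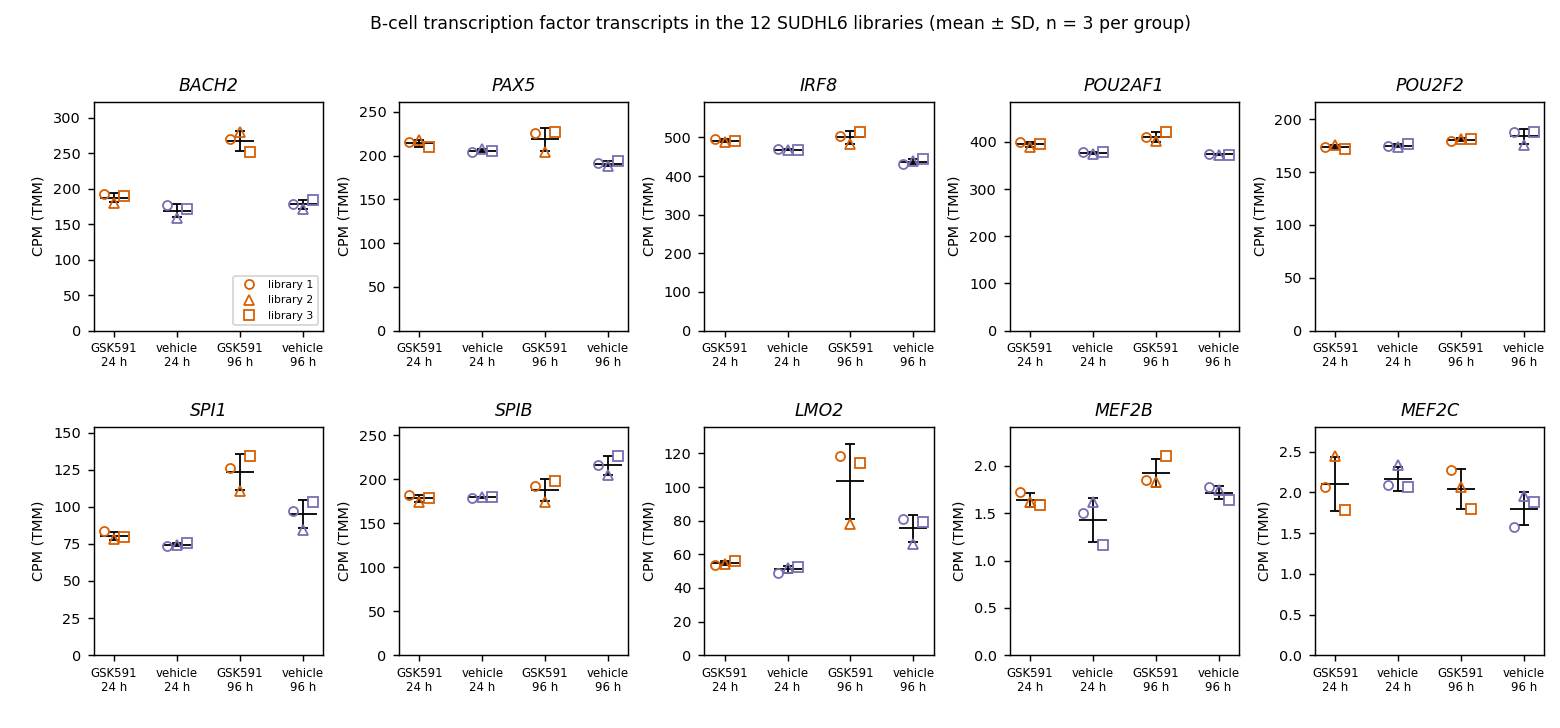
Level of each transcript in the 12 libraries, in CPM on a linear axis from 0, with GSK591 (orange) left of vehicle (violet) at each time; symbols are single libraries by number and bars are the mean ± SD of 3. BACH2 at 96 h shows the widest gap between the groups, SPIB sits lower under GSK591 at 96 h, and the library numbered 2 (triangles) under GSK591 at 96 h lies below its fellows for LMO2 (77.9 CPM) and SPI1 (111 CPM).

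IRF8, an interferon regulatory factor that partners PU.1 in germinal centre B cells, had the highest level of the 10 per kb of exon. It stood at 503, 482 and 515 CPM after 96 h of GSK591, against 431, 438 and 443 CPM in vehicle. No values overlapped, and the log2 fold change was 0.21 ± 0.05 (edgeR adjusted p = 0.0117). At 24 h IRF8 read 495, 488 and 492 CPM under GSK591, against 469, 467 and 467 CPM in vehicle, a log2 fold change of 0.07 ± 0.02 (edgeR adjusted p = 0.0199). Leaving out vehicle replicate 1 ended the 96 h call (adjusted p = 0.0686), and the 24 h call was lost in 5 of 13 alternatives, library size alone among them (adjusted p = 0.0653).

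POU2AF1 encodes OCA-B, the coactivator that germinal centre formation needs, and POU2F2 encodes Oct-2, the octamer-binding factor it joins. POU2AF1 read 409, 401 and 421 CPM under GSK591 at 96 h, against 375, 372 and 373 CPM in vehicle. The groups did not overlap, and the log2 fold change was 0.15 ± 0.05 (edgeR adjusted p = 0.0327). POU2AF1 at 24 h read 399.5, 389 and 396 CPM under GSK591, against 377, 375 and 378 CPM in vehicle, a log2 fold change of 0.07 ± 0.02 (edgeR adjusted p = 0.0343). Both calls were fragile. At 96 h the call was lost in 6 of 15 alternatives, among them no filter (adjusted p = 0.141), and at 24 h in 6 of 13.

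POU2F2 did not follow its coactivator past the test. Its values were 179, 182 and 181 CPM under GSK591 at 96 h and 188, 176 and 188 CPM in vehicle, so that all treated values lay inside the vehicle range. The log2 fold change was -0.01 with a 95% interval of -0.13 to 0.11 (edgeR adjusted p = 0.881). At 24 h POU2F2 read 174, 175 and 172 CPM under GSK591 and 175, 174 and 176 CPM in vehicle, with an interval of -0.06 to 0.04 (adjusted p = 0.798). The difference between the POU2AF1 and POU2F2 effects was itself not tested.

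SPI1 encodes PU.1, an Ets factor of B cells and myeloid cells, and SPIB encodes its close relative Spi-B, which acts in B cells and plasmacytoid dendritic cells. After 96 h of GSK591 these relatives were called in opposite directions. SPI1 stood at 126, 111 and 134 CPM under GSK591, against 97.1, 84.6 and 103 CPM in vehicle. Every treated library was above every vehicle library, and SPI1 rose by 0.39 ± 0.09 on the log2 scale (1.31-fold, edgeR adjusted p = 0.00871), a call kept in all 15 alternatives. SPIB stood at 192, 174 and 197 CPM under GSK591, against 216, 205 and 226 CPM in vehicle. Every treated library was below every vehicle library, and SPIB fell by 0.19 ± 0.06 on the log2 scale (edgeR adjusted p = 0.0395). Without both libraries numbered 2 the log2 fold changes were 0.38 for SPI1 (adjusted p = 6.31e-06) and -0.18 for SPIB (adjusted p = 0.00192). The SPIB call was lost in 4 of the 6 fits that left out 1 library (adjusted p between 0.0557 and 0.138).

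At 24 h SPI1 read 83.6, 78.02 and 79.6 CPM under GSK591, against 73.7, 74.1 and 75.8 CPM in vehicle (log2 fold change 0.11 ± 0.03, edgeR adjusted p = 0.018), a call lost in 5 of 13 alternatives. SPIB at 24 h read 183, 174 and 178 CPM under GSK591 and 179, 179.5 and 179 CPM in vehicle, with a log2 fold change of -0.01 ± 0.02 (edgeR adjusted p = 0.865). PU.1 is also a myeloid factor, so the myeloid markers stand here beside it. Their summed level over 8 genes ran from 0.826 to 1.43 CPM under GSK591 at 96 h and from 0.387 to 0.699 CPM under vehicle. CD14, the lipopolysaccharide co-receptor of monocytes, rose in this comparison (log2 fold change 1.64 ± 0.35, edgeR adjusted p = 0.00751) between means of 0.864 CPM under GSK591 and 0.272 CPM under vehicle. CD14 rested on 58, 36 and 52 counts under GSK591 and on 159, 7 and 20 under vehicle, the 159 in the deep library. CSF1R and CSF3R were too low to be tested. CSF1R, the receptor of macrophage colony-stimulating factor, averaged 0.196 CPM under GSK591 and 0.0846 CPM under vehicle, without overlap. CSF3R, the receptor of granulocyte colony-stimulating factor, went the other way, with means of 0.0669 CPM under GSK591 and 0.178 CPM under vehicle and no overlap. LYZ, MPO and ITGAM overlapped. S100A8 and S100A9 were at 0 throughout. The part of the myeloid markers in the SPI1 result was not tested. SPIC, the remaining relative, had no count in any library, where 3 counts correspond to 0.00532 to 0.0615 CPM.

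Next to SPIB lies POLD1, the catalytic subunit of DNA polymerase delta. POLD1 fell at both times, by 0.09 ± 0.03 on the log2 scale at 24 h (edgeR adjusted p = 0.0399) and by 0.33 ± 0.10 at 96 h (adjusted p = 0.0251). In the GENCODE 29 annotation of GRCh38, 19.6% of the exonic bases of SPIB are shared on the same strand with another annotated gene, which is not POLD1. How reads in shared bases were counted is not stated in the labels.

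LMO2, the LIM-only bridging protein, showed the widest relative spread of the 10 under GSK591 at 96 h. It stood at 118, 77.9 and 114 CPM under GSK591, against 81.1, 66.0 and 79.1 CPM in vehicle. The groups overlapped, since the treated library numbered 2 lay below 2 of the vehicle libraries, while both libraries numbered 2 were the lowest of their groups. LMO2 averaged 103 ± 22.2 CPM under GSK591 and 75.4 ± 8.19 CPM under vehicle (SD, n = 3 each), with a log2 fold change of 0.47 ± 0.14 (1.38-fold, edgeR adjusted p = 0.0307). Without both libraries numbered 2, in a fit of 2 against 2 libraries, it was 0.54 (adjusted p = 1.4e-07). The call was lost without GSK591 replicate 1 (adjusted p = 0.109), GSK591 replicate 3 (adjusted p = 0.108), vehicle replicate 2 (adjusted p = 0.127) or vehicle replicate 3 (adjusted p = 0.0573). At 24 h LMO2 read 53.7, 54.4 and 55.9 CPM under GSK591, against 48.8, 52.0 and 52.7 CPM in vehicle. These values did not overlap, yet the log2 fold change of 0.10 ± 0.03 missed the threshold (edgeR adjusted p = 0.0616).

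MEF2B and MEF2C read low in CPM, and neither was called. MEF2B, the MADS-box activator that lymphomas often mutate, read 1.85, 1.83 and 2.10 CPM under GSK591 at 96 h, against 1.78, 1.74 and 1.64 CPM in vehicle. All treated values were above all vehicle values, but the log2 fold change of 0.17 ± 0.13 had a 95% interval of -0.13 to 0.47 (edgeR adjusted p = 0.319). At 24 h MEF2B read 1.73, 1.62 and 1.58 CPM under GSK591 and 1.502, 1.62 and 1.17 CPM in vehicle, from 64 to 91 counts a library (log2 fold change 0.21 ± 0.14, adjusted p = 0.363). In GENCODE 29, 1365 of the 1848 exonic bases of MEF2B, or 73.9%, are shared on the same strand with the readthrough gene BORCS8-MEF2B. How reads in those bases were counted is not stated, so the MEF2B level is uncertain. The tables list this readthrough as MEF2BNB-MEF2B, with 0 counts in all 12 libraries. Its other component MEF2BNB fell at 96 h by 0.40 ± 0.13 on the log2 scale (edgeR adjusted p = 0.0328).

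MEF2C read 2.27, 2.07 and 1.79 CPM under GSK591 at 96 h and 1.57, 1.95 and 1.88 CPM in vehicle. The groups overlapped, and the log2 fold change was 0.22 ± 0.16 with a 95% interval of -0.13 to 0.58 (edgeR adjusted p = 0.274). At 24 h it read 2.07, 2.44 and 1.78 CPM under GSK591 and 2.09, 2.34 and 2.07 CPM in vehicle (log2 fold change -0.03 ± 0.13, adjusted p = 0.888). The 96 h intervals of MEF2B and MEF2C both reach above the log2 fold change of SPI1.

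Counted by overlap alone, 6 of the 10 transcripts had all GSK591 values above all vehicle values at 24 h, namely the 4 called and PAX5 and LMO2, and 0 had all values below. Over all genes tested these shares were 15.7% above and 16.2% below. At 96 h 6 of the 10 were above, BACH2, PAX5, SPI1, POU2AF1, IRF8 and MEF2B, and SPIB was below. The shares over all genes were 25% above and 29.7% below. Both sets of shares take in genes of low counts. The shares among well-expressed genes, the closer background, were not computed for overlap. For the other 9 genes the difference between the times was not called. The nearest to the threshold were SPIB, at -0.19 ± 0.07 on the log2 scale (edgeR adjusted p = 0.0563), SPI1, at 0.27 ± 0.10 (adjusted p = 0.0688), and IRF8, at 0.12 ± 0.05 (adjusted p = 0.0897). Without both libraries numbered 2 at 96 h, 6 of the 10 were called in this test, 5 of them higher, and the share over all genes was then 43.8%, with 20.5% higher and 23.3% lower.

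Levels of different genes were compared per length, as CPM per kb of merged exons in GENCODE 29. IRF8 led in every group, at 95.2 CPM per kb under GSK591 and 90.6 under vehicle at 24 h, and at 96.9 under GSK591 and 84.8 under vehicle at 96 h. At 96 h under GSK591 the order below IRF8 was SPI1 at 59.7, POU2AF1 at 55.4, SPIB at 43.9, LMO2 at 33.3, BACH2 at 27.3, PAX5 at 23.4 and POU2F2 at 19.9 CPM per kb. SPI1 and POU2AF1 overlapped in that order, and so did LMO2 and BACH2. Under vehicle at 96 h the order was SPIB at 50.4, POU2AF1 at 50.3, SPI1 at 45.9, LMO2 at 24.3, PAX5 at 20.4, POU2F2 at 20.3 and BACH2 at 18.2 CPM per kb. SPIB could not be set apart from POU2AF1 or SPI1 beyond the spread of the libraries, nor PAX5 from POU2F2. The place of SPIB in these orders is uncertain, since 839 of its 4281 exonic bases are shared with another gene and reads there may not have been counted. MEF2B, at 1.04 under GSK591 and 0.930 under vehicle, and MEF2C, at 0.174 under GSK591 and 0.153 under vehicle, read far below the rest at 96 h. The MEF2B level is uncertain in the same way as that of SPIB, since 1365 of its 1848 exonic bases are shared.

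Levels under vehicle also differed between the times. LMO2 averaged 75.4 CPM at 96 h and 51.2 CPM at 24 h, SPI1 94.9 CPM at 96 h and 74.5 CPM at 24 h, and SPIB 216 CPM at 96 h and 179 CPM at 24 h. Time in culture and the set of libraries cannot be told apart here, and this difference was not tested. The GSK591 effects compare libraries of the same time.

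Beside the 10 genes, 22 other B-cell transcription factors were counted. At 24 h 4 were higher and 1 lower, and at 96 h 9 were higher and 1 lower, with median log2 fold changes of 0.04 at 24 h and 0.12 at 96 h. Over all genes tested 7.44% were higher and 7.3% lower at 24 h, and 20.7% were higher and 19.6% lower at 96 h, with medians of -0.00 and 0.00. Among well-expressed genes, as most of these factors were, 14.1% were higher and 7.12% lower at 24 h. At 96 h 24.5% of well-expressed genes were higher and 20.9% lower. TCF3, an E protein of early B-cell fate and the germinal centre, rose at 24 h by 0.11 ± 0.02 (edgeR adjusted p = 0.00371). At 96 h TCF3 rose by 0.25 ± 0.08 (adjusted p = 0.035), although the groups overlapped. STAT6, the signal transducer of interleukin-4, stood at 791, 678 and 738 CPM under GSK591 at 96 h, against 563, 484 and 554 CPM in vehicle, and rose by 0.48 ± 0.08 on the log2 scale (edgeR adjusted p = 0.00275). IRF4, which shares partners with IRF8 and drives plasma cell differentiation at high levels, went the other way. It stood at 43.5, 41.7 and 43.2 CPM under GSK591 at 96 h, against 56.4, 65.4 and 58.5 CPM in vehicle, and fell by 0.47 ± 0.06 on the log2 scale (edgeR adjusted p = 0.0014). At 24 h IRF4 read 40.3, 42.1 and 43.5 CPM under GSK591 and 40.5, 43.1 and 42.5 CPM in vehicle (log2 fold change 0.00 ± 0.04, adjusted p = 0.999). The homeobox gene HHEX fell at 24 h, by 0.17 ± 0.04 (adjusted p = 0.00372), and rose at 96 h, by 0.27 ± 0.07 (adjusted p = 0.0174).

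Of 25 paralogues of the 10 genes, 14 were tested. At 24 h 2 were higher and 1 lower, and at 96 h 3 were higher and 2 lower, against 14.7% of all genes called at 24 h and 40.2% at 96 h. MEF2D, unlike MEF2B and MEF2C as counted here, was well expressed. It read 155, 152 and 156 CPM under GSK591 at 96 h, against 129, 119.8 and 129.9 CPM in vehicle. MEF2D rose by 0.30 ± 0.05 on the log2 scale at 96 h (edgeR adjusted p = 0.00331) and by 0.11 ± 0.02 at 24 h (adjusted p = 0.0043). IRF3, an activator of type I interferon genes, fell by 0.10 ± 0.03 on the log2 scale at 24 h (edgeR adjusted p = 0.0219). At 96 h IRF3 fell by 0.26 ± 0.09 (adjusted p = 0.0449).

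Proteins that work with these factors form the next list, of which 16 of 18 were tested. At 24 h 4 were higher and none lower, and at 96 h 8 were higher and 1 lower, with median log2 fold changes of 0.05 at 24 h and 0.26 at 96 h. The background over all genes was 7.44% higher and 7.3% lower at 24 h, and 20.7% higher and 19.6% lower at 96 h. Among well-expressed genes it was 14.1% higher and 7.12% lower at 24 h, and 24.5% higher and 20.9% lower at 96 h. HDAC7, a class IIa deacetylase that MEF2 proteins recruit, stood at 140.0, 133 and 135 CPM under GSK591 at 96 h, against 93.5, 86.1 and 99.3 CPM in vehicle. HDAC7 rose by 0.56 ± 0.06 on the log2 scale at 96 h (edgeR adjusted p = 0.000651) and by 0.12 ± 0.03 at 24 h (adjusted p = 0.0167). LDB1, the dimerizing partner of LMO2, read 145, 130.4 and 144 CPM under GSK591 at 96 h, against 113, 101 and 112 CPM in vehicle. LDB1 rose by 0.37 ± 0.06 at 96 h (adjusted p = 0.00314) and by 0.20 ± 0.03 at 24 h (adjusted p = 8.71e-05).

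Genes that the 10 factors are known to activate were counted next. Of 10 tested, 4 were higher and none lower at 24 h, and 5 were higher and none lower at 96 h. The shares of higher genes were 7.44% at 24 h and 20.7% at 96 h over all genes, and 14.1% at 24 h and 24.5% at 96 h among well-expressed genes. CD72, a PAX5 and PU.1 target that encodes an inhibitory co-receptor, stood at 341, 292 and 344 CPM under GSK591 at 96 h, against 219, 174 and 216 CPM in vehicle. CD72 rose by 0.69 ± 0.10 on the log2 scale at 96 h (edgeR adjusted p = 0.00161) and by 0.16 ± 0.02 at 24 h (adjusted p = 0.000157). CIITA, the master activator of MHC class II genes, read 119.7, 119 and 116 CPM under GSK591 at 96 h, against 87.3, 72.5 and 91.6 CPM in vehicle (log2 fold change 0.51 ± 0.08, adjusted p = 0.00273). CD79B, the signalling chain of the B-cell receptor, rose at 24 h by 0.14 ± 0.02 (adjusted p = 0.000558) and was not called at 96 h (log2 fold change 0.18 ± 0.07, adjusted p = 0.0771), where the groups overlapped.

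Genes that PAX5 or BACH2 are known to repress were few, with 3 of 4 tested and 1 lower at each time, against 7.3% of all genes at 24 h and 19.6% at 96 h. XBP1, the secretory factor of plasma cells that PAX5 holds down, fell at both times. It stood at 5.80, 7.93 and 6.97 CPM under GSK591 at 96 h, against 15.3, 18.6 and 15.8 CPM in vehicle, and fell by 1.24 ± 0.13 on the log2 scale (edgeR adjusted p = 0.00055). At 24 h XBP1 read 14.1, 13.3 and 13.01 CPM under GSK591, against 17.7, 17.6 and 15.8 CPM in vehicle, and fell by 0.34 ± 0.05 on the log2 scale (adjusted p = 0.000393). PRDM1, the BACH2 target, was near its limit of detection, at 13, 16 and 15 counts in the GSK591 libraries of 96 h against 111, 10 and 9 counts in the vehicle libraries, of which the first is the deep one. Scaled for depth, PRDM1 read 0.251, 0.236 and 0.272 CPM under GSK591 at 96 h, against 0.197, 0.193 and 0.180 CPM in vehicle. All treated values were thus above all vehicle values at 96 h, and at 24 h all were below. The log2 fold change of PRDM1 was -0.37 ± 0.19 at 24 h (edgeR adjusted p = 0.201) and 0.40 ± 0.24 at 96 h (adjusted p = 0.220). FLT3, too low to be tested, averaged 0.222 CPM under GSK591 and 0.0808 CPM under vehicle at 96 h, without overlap. HMOX1, the haem oxygenase gene that BACH proteins repress, read 2.83, 1.68 and 2.63 CPM under GSK591 at 96 h and 1.68, 1.08 and 1.72 CPM in vehicle (log2 fold change 0.65 ± 0.23, adjusted p = 0.0517).

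**Figure D3:**
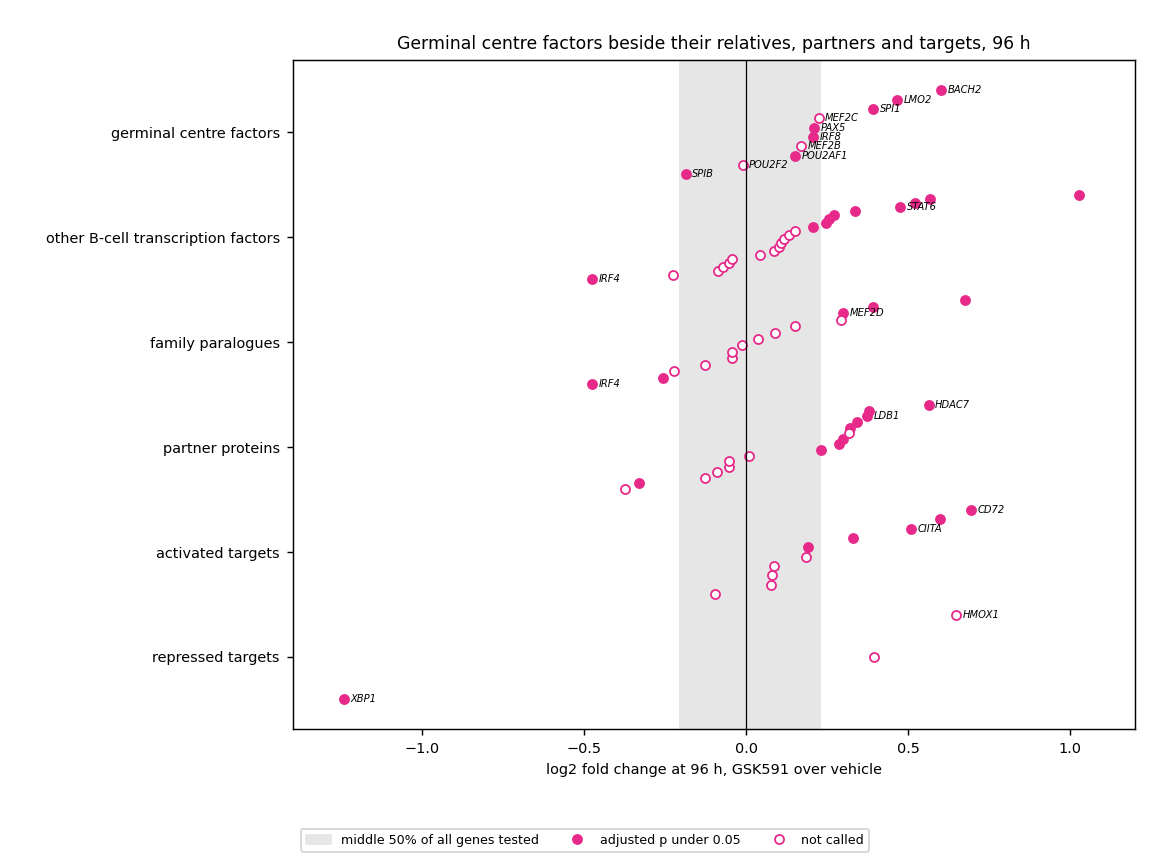
Log2 fold change at 96 h, GSK591 over vehicle, of the 10 germinal centre factors (top) and 5 related lists, 1 point per gene tested; filled points have an edgeR adjusted p under 0.05, and grey marks the middle 50% of all genes tested. BACH2, LMO2 and SPI1 lie right of the grey band, SPIB lies inside it at -0.19, and XBP1 lies far left at -1.24; IRF4 belongs to 2 lists and is drawn in both.

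In the authors' deposited table for 24 h, 1 of the 10 genes had an FDR under 0.05, BACH2 at 0.0176, against 7.75% of all 23368 genes in that table, which has no filter on low counts. In the authors' deposited table for 96 h, 5 had one, all higher, namely BACH2 (FDR 2.95e-12), SPI1 (0.000308), LMO2 (0.00268), IRF8 (0.0133) and PAX5 (0.0172), against 12.3% of all genes higher and 10.5% lower in that table. SPIB (FDR 0.0653) and POU2AF1 (FDR 0.0902), called here at 96 h, were not past that threshold in the authors' deposited table.

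**Figure D4:**
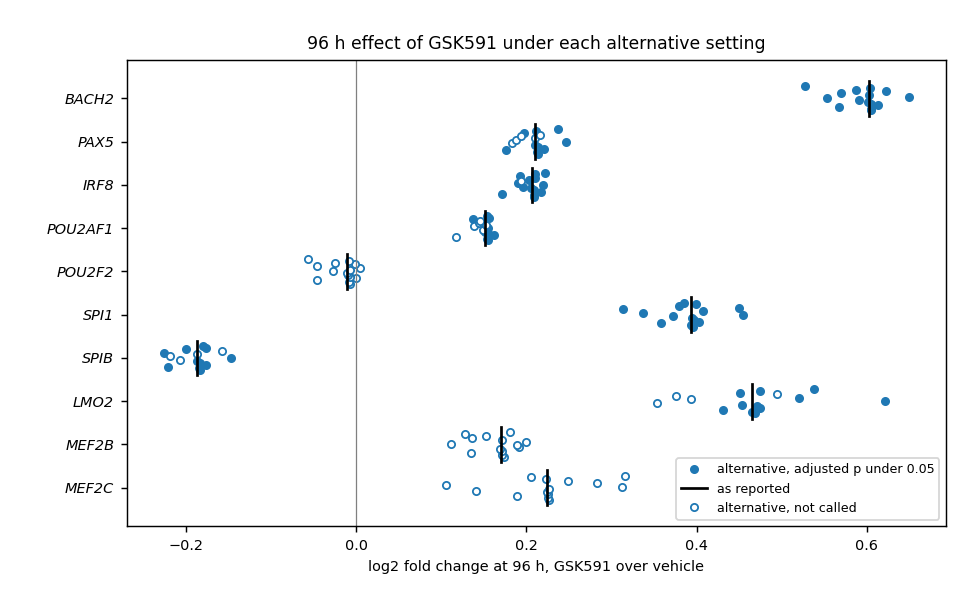
Log2 fold change of each transcript at 96 h, GSK591 over vehicle, under each alternative setting (points, filled where the adjusted p is under 0.05) beside the value reported (black bar). BACH2 and SPI1 have filled points alone, PAX5, IRF8, POU2AF1, SPIB and LMO2 have both kinds, and POU2F2, MEF2B and MEF2C have open points alone.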

How the data were processed

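Poly(A)-selected RNA of SUDHL6 cells was sequenced in 12 libraries, grouped by the treatment and time of their labels, 3 per group. Per the file headers, the authors deposited 1 table per time of raw read counts by gene symbol, and further tables of log2 fold changes, log2 CPM, p-values and FDR. STAR, HTSeq, edgeR and hg19 (GRCh37) were used, per the submitters' processing notes. Versions, annotation, strand setting and the test behind the fold change tables are not stated there.

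Here the counts were filtered with filterByExpr, scaled with TMM and compared by the two-sided quasi-likelihood test of edgeR 4.0.16 in R 4.3.3. P-values were adjusted by the Benjamini-Hochberg method over all genes tested, with a threshold of 0.05. Each time was fitted with its 6 libraries. The difference of the effects used all 12 libraries and 4 group means. An SE is the log2 fold change divided by the square root of F, and intervals use the t distribution of the fit. CPM use TMM over all 12 libraries. The fits were tested on simulated counts. Libraries held 48.5 to 547.9 M counts, but precision also rests on the spread between libraries and does not follow from depth alone. The floor of 3 counts covers counting error only.

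No pair of replicates agreed within sampling noise (chi-square per degree of freedom between 2.20 and 39.79), so none was treated as a repeat deposit of another. All 10 factors were named, and from each other list the 2 tested genes with the smallest p-value at each time. Members and lists were chosen with earlier results of these data known. Some genes of the lists are not reported here. No coordinates of the files' build were used. Alternatives were other scalings and filters, DESeq2 1.42.0, a replicate block, 1 fit of all libraries, a thinned deep library and libraries left out.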

Additional observations from a re-analysis of the deposited data

Results flagged for a closer look

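The effect of GSK591 on 9 of the genes named above differed between 96 h and 24 h in the test of the difference itself (edgeR's quasi-likelihood test on all 12 libraries, log2 fold change at 96 h minus that at 24 h, with its SE). Among the 10 germinal centre factors this was BACH2, at 0.44 ± 0.07 (adjusted p = 0.00155). Its log2 fold change was 0.60 at 96 h and 0.15 at 24 h, and the difference was called in 20 of 20 alternatives.

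The other 8 belong to the lists of relatives, partners and targets. IRF4 differed by -0.49 ± 0.08 (adjusted p = 0.00121), with a fall at 96 h and no call at 24 h. XBP1 differed by -0.91 ± 0.14 (adjusted p = 0.00117), with falls at both times. HHEX differed by 0.43 ± 0.08 (adjusted p = 0.00281), with a fall at 24 h and a rise at 96 h. HDAC7 differed by 0.43 ± 0.07 (adjusted p = 0.00187), STAT6 by 0.40 ± 0.09 (adjusted p = 0.00618) and CD72 by 0.52 ± 0.11 (adjusted p = 0.00524). CIITA differed by 0.43 ± 0.09 (adjusted p = 0.00616) and MEF2D by 0.17 ± 0.05 (adjusted p = 0.0310). Of all 13665 genes tested, 24.1% were called in this difference. These 8 were named for small p-values at 24 h or 96 h in these same libraries, so this share is no fair background. Over the whole lists, 3 were higher and 1 lower of 22 other B-cell factors, and 1 higher and 1 lower of 14 paralogues. Of 16 partners 5 were higher and 1 lower, of 10 activated targets 3 were higher, and of 4 repressed targets 1 was lower.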

How the results depend on the processing

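At 24 h, 1941 genes were called with 980 higher and 961 lower, which library size alone split into 565 higher and 1220 lower. The count ran from 980 to 2208 with 1 library left out and was 29 in the fit of all 12 libraries. The 10 factors gave 4 calls at 24 h, 1 with library size alone, 0 in the fit of all 12 libraries, and 1 to 5 with 1 library left out. At 96 h, 5437 genes were called, 3438 to 7485 with 1 library left out and 8201 without both libraries numbered 2. The factors gave 7 calls at 96 h, and 3 to 7 with 1 library left out. For the difference, 3298 genes were called, 1991 to 5712 with 1 library left out and 6022 without both libraries numbered 2. The single factor called there became 3 with library size alone, 2 with no filter, 3 with the filter of 5 CPM, 3 with DESeq2, 1 to 6 with 1 library left out and 6 without both libraries numbered 2. Thinning the deep vehicle library to 9.45% of its counts left 7 factors called at 96 h. The cause of these shifts was not tested.

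With the replicate number as a block, 2809, 6293 and 4322 genes were called at 24 h, at 96 h and for the difference, and 6, 7 and 4 of the factors. The factors gained at 24 h were PAX5 (adjusted p = 0.0430) and LMO2 (adjusted p = 0.0177). The numbers were not taken as pairs, since no label states a pairing. Same-numbered libraries deviated together at r = 0.005, 0.105 and 0.008 at 24 h and 0.269, 0.245 and 0.009 at 96 h. Differently numbered libraries had r from -0.055 to 0.048 at 24 h and from -0.333 to 0.222 at 96 h. Whether libraries of one number shared a shift at 96 h was not tested.

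Signs turned in 8 comparisons of single factors, none past the threshold in the reported fit or in the alternative. At 24 h SPIB lay between -0.0253 and 0.0090 and MEF2C between -0.1625 and 0.0665 with 1 library left out, turning without GSK591 replicate 2 for SPIB, and without GSK591 replicate 3 or vehicle replicate 2 (0.02) for MEF2C. At 96 h POU2F2 lay between -0.0462 and 0.0043, turning without vehicle replicate 1. In the difference POU2F2 was 0.02 with library size alone and 0.0027 with the filter of 5 CPM, and with 1 library left out it lay between -0.0539 and 0.0011, turning without vehicle replicate 1 at 96 h. MEF2B lay between -0.1504 and 0.0711, turning without vehicle replicate 3 at 24 h. MEF2B and MEF2C have no value under the filter of 5 CPM. Of the other comparisons, 402 kept their side of the threshold, 37 lost a call and 26 gained one.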

Other observations

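Members of the same lists that the naming rule did not select are given here, chosen after their values were seen. ID2, an inhibitor of E proteins such as TCF3, stood at 38.9, 15.8 and 33.8 CPM under GSK591 at 96 h, against 15.7, 10.9 and 16.7 CPM in vehicle. The groups overlapped, and the log2 fold change was 1.03 ± 0.29 (edgeR adjusted p = 0.0219). IKZF3, the Ikaros family factor Aiolos, rose by 0.52 ± 0.09 at 96 h (edgeR adjusted p = 0.00314), and FOXP1, a forkhead factor of B cells, by 0.26 ± 0.06 (adjusted p = 0.00835). EBF1, an early B-cell factor, read -0.04 ± 0.07 on the log2 scale and was not called (adjusted p = 0.659). The acetyltransferases CREBBP and EP300, which many of these factors recruit, rose by 0.30 ± 0.06 (adjusted p = 0.00683) and by 0.32 ± 0.07 (adjusted p = 0.00681). CD22, an inhibitory B-cell receptor co-receptor, fell by 0.24 ± 0.07 at 96 h (adjusted p = 0.0189).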
